A study of Mus musculus with 18 samples.

Results

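The 7 sarcomeric myosin heavy chain genes Myh1, Myh2, Myh3, Myh4, Myh7, Myh8 and Myh7b were followed by name through 18 libraries of mouse tibialis anterior, the muscle at the front of the lower leg. All 7 were found among the 20922 genes of the expression table, and all 7 passed the filter on low values, set at a mean of 10 normalized counts. The muscles came from mice in which the femoral artery of 1 hindlimb had been tied, a model of peripheral artery disease, and were taken 36 days later. The study asked how a muscle without the clock gene Bmal1 fares under this loss of blood flow.

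The 4 groups were BKO ligated (n = 4), WT ligated (n = 4), BKO intact (n = 5) and WT intact (n = 5), where the intact muscle came from the leg opposite the ligation. In BKO mice Bmal1 had been deleted from skeletal muscle in the adult, and WT mice were their controls. Both genotypes carried floxed Bmal1 alleles (Bmal1 fx/fx). All mice were given doxycycline by gavage for 3 days, per the labels' protocols, and surgery followed a week after the last dose. The recombinase line, ACTA-rtTA-TRE-Cre, acts in skeletal muscle on doxycycline, so other cells of the muscle would keep the gene. The labels' protocol gives this line as -/- in knockouts and +/+ in controls, the reverse of the usual meaning, so which genotype is which was taken from the names of the groups. The sources used here give neither the age and sex of the mice nor the hour of collection. The summed Bmal1 count (listed as Arntl) differed by -0.16 ± 0.17 between BKO and WT intact muscle (log2, SE, limma, adjusted p = 0.584) and by 2.05 ± 0.19 between BKO and WT ligated muscle (adjusted p = 1.67e-07). It covers all exons of the gene, and no source used here names the deleted part, so it checks no label.

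Myosin heavy chains form the thick filaments of the sarcomere, and the isoform a fibre makes largely sets how fast it shortens. In adult rodent muscle the isoforms run in order of speed from IIb (Myh4) through IIx (Myh1) and IIa (Myh2) to slow (Myh7). Myh3 (embryonic) and Myh8 (perinatal) are made in developing fibres and again in fibres that regenerate. Myh7b, an ancient relative of Myh7 that hosts the microRNA gene Mir499, is made in small amounts in adult limb muscle. The tibialis anterior of the mouse is a fast muscle rich in IIb and IIx fibres.

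In the GENCODE annotation of mm10, 5 of the 7 genes lie head to tail on the plus strand of chromosome 11. Myh3 stands at chr11:67078300-67102291, Myh2 at chr11:67171027-67197517, Myh1 at chr11:67200052-67224575, Myh4 at chr11:67238029-67260446 and Myh8 at chr11:67277124-67308634. Myh7 stands at chr14:54970684-54994626 on the minus strand and Myh7b at chr2:155611212-155634307 on the plus strand. Their longest annotated coding sequences are nearly equal in length, 5805 bases in Myh7 to 5826 bases in Myh1 and Myh2. Counts of different members can therefore be set side by side almost as they stand.

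The coding sequences are also alike, and this limits how far reads can be split between members. Myh1 and Myh2 have 91.0% identical coding bases, Myh1 and Myh4 90.2%, Myh4 and Myh8 87.9%, and Myh4 and Myh7 77.5%. Of all stretches of 75 bases, a length chosen here, 17.0% in Myh2, 16.9% in Myh1, 12.1% in Myh8 and 9.70% in Myh4 also occur unchanged in another member. The share is 0.609% in Myh3, and no such stretch was found in Myh7 or Myh7b. The longest run shared by Myh1 and Myh2 is 268 bases, and the longest shared by Myh4 and Myh8 is 164 bases. Both are shown because a read from inside them names no single member. The first spans exons 23 to 24 of Myh1 (chr11:67213219-67213597 with the intron) and exons 23 to 24 of Myh2 (chr11:67188318-67188696). The second spans exons 22 to 23 of Myh4 (chr11:67252200-67252559) and exons 24 to 25 of Myh8 (chr11:67297464-67297706). Both are coding sequence, from the plus strand of the GENCODE transcripts, in lower case because every base is shared.
Myh1 and Myh2 shared run: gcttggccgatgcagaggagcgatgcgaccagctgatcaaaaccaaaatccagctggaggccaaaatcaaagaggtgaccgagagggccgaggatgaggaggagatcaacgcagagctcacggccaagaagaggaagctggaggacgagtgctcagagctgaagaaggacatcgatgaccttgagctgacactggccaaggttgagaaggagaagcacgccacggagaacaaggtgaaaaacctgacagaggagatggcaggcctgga
Myh4 and Myh8 shared run: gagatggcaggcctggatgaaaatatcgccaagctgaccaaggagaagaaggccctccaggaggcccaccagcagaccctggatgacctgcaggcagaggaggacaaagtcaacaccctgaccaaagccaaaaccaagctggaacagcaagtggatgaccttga

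The DNA just upstream of the start of Myh4, Myh1 and Myh8 is shown next, the members in which the motif ATTTATAG was found. All 7 members matched an entry in the RefSeq promoter table (GRCm38.p6). The 250 bases before each RefSeq start were searched on both strands for ATTTATAG and for TATAAA. The reverse strand of ATTTATAG always holds the shorter motif, so each match of ATTTATAG is also a match of TATAAA. Both were picked after the promoters had been read. ATTTATAG was found in Myh1 at -209, Myh4 at -180 and Myh8 at -97, counted back from the start, and in none of the windows of Myh2, Myh3, Myh7 and Myh7b. It occurs in 0.903% of 27025 mouse promoters, and TATAAA in 13%. The motif bound by BMAL1 with CLOCK, CACGTG, was found in the window of Myh7b, at -79, and in no other member, and 6.05% of promoters hold it. Myh3 and Myh7b, which lack ATTTATAG, were also called in a ligation comparison below. A match is only a match of letters. The lines give chr11:67237592-67237811 for Myh4, chr11:67199882-67200051 for Myh1 and chr11:67276904-67277123 for Myh8, plus strand, with both motifs in capitals. The Myh1 line ends at the GENCODE start, which lies upstream of the RefSeq start, so a TATAAA at -32 in the searched window of Myh1 is not on it.
Myh4 promoter: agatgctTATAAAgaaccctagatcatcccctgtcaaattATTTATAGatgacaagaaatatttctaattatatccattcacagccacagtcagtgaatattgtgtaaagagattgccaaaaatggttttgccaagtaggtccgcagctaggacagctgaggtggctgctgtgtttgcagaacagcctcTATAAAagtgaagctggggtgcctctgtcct
Myh1 promoter: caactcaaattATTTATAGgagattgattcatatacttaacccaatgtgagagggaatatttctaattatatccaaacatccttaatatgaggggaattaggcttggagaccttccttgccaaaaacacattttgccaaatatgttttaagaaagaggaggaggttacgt
Myh8 promoter: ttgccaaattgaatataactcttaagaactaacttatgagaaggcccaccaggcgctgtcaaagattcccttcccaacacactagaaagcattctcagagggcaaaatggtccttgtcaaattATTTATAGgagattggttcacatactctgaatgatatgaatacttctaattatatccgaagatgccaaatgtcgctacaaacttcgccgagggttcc

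The libraries held 14.1 to 25.6 M reads (M for mega), as recovered from the deposited values. The mitochondrial ribosomal RNA mt-Rnr2 took 40.9 to 55.5% of them in BKO ligated, 38.1 to 45.3% in WT ligated, 33.6 to 36.1% in BKO intact and 31.9 to 34.3% in WT intact muscle. Of the other reads, the 7 myosins together took 5.11 to 5.64% in BKO ligated, 4.70 to 5.25% in WT ligated, 5.54 to 6.52% in BKO intact and 5.35 to 6.38% in WT intact muscle. Per kb of coding sequence the mean levels in WT intact muscle ran from 109164 normalized counts for Myh4 through 19899 for Myh1 and 1223 for Myh2 to 23.2 for Myh7, 7.16 for Myh8, 4.25 for Myh3 and 2.28 for Myh7b. The ranges of Myh4, Myh1 and Myh2 did not overlap in any of the 4 groups. Those of Myh7, Myh8, Myh3 and Myh7b did overlap in WT intact muscle, except Myh8 with Myh7b, so their order there is not a firm one. In bulk muscle, fewer fibres of a type and less RNA per fibre cannot be told apart.

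**Figure D1:**
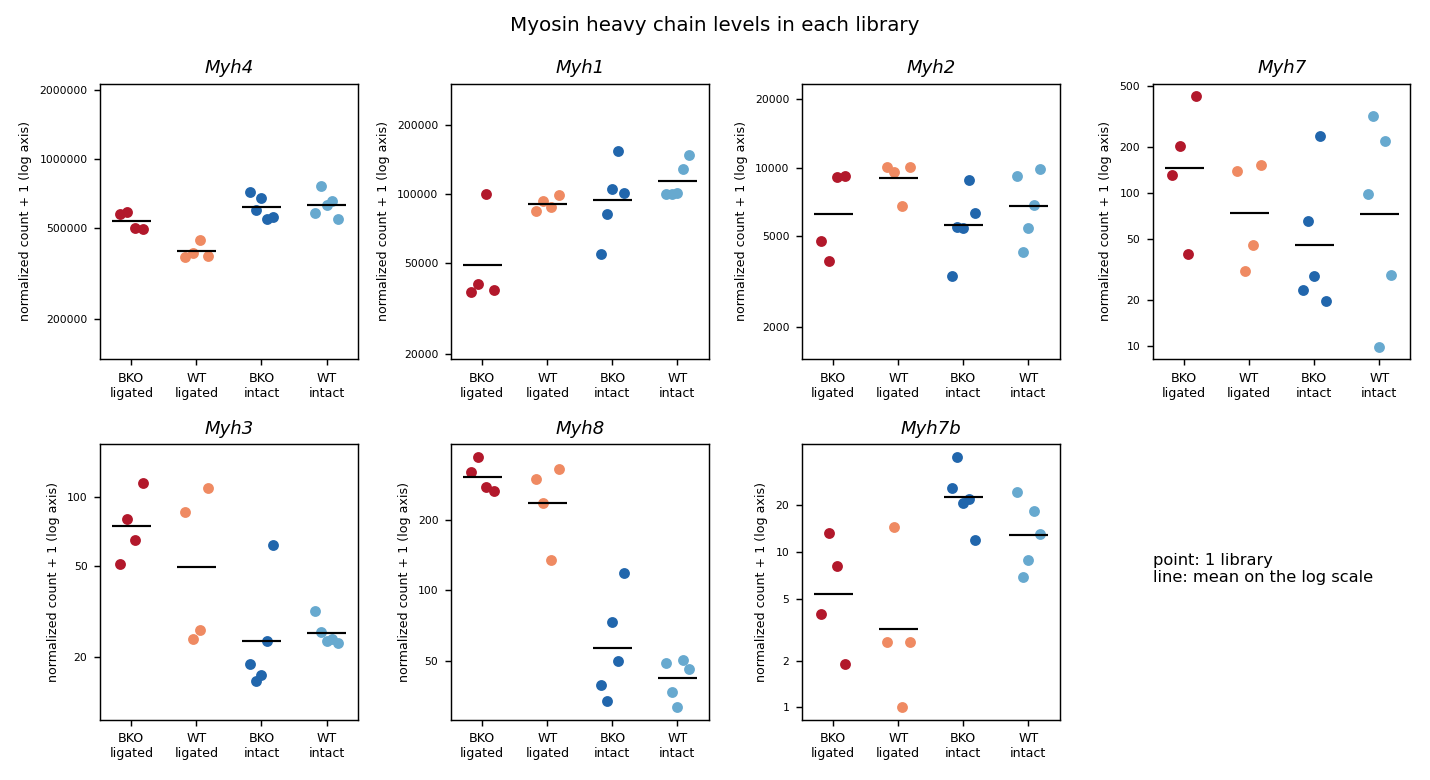
Normalized count plus 1 of each myosin heavy chain (log axis, a separate scale per panel) in every BKO ligated, WT ligated, BKO intact and WT intact library; points are libraries and lines the mean on the log scale. Myh4 is higher in all 4 BKO ligated than in all 4 WT ligated libraries, and Myh8 is higher in every ligated than in every intact library of either genotype.

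Among the adult fast chains, Myh4 was lower in ligated than in intact WT muscle, and higher in BKO than in WT muscle after ligation. Normalized counts of Myh4 were 574885, 585978, 496537 and 496220 in BKO ligated libraries, against 372601, 387981, 441737 and 376188 in WT ligated libraries. They were 713542, 600217, 676939, 543476 and 559122 in BKO intact libraries, against 581436, 763530, 631512, 652460 and 546111 in WT intact libraries. After ligation every BKO library stood above every WT library, while the intact groups overlapped throughout. In WT muscle ligation went with a log2 fold change of -0.68 ± 0.12 (SE, limma, adjusted p = 0.000172), and the values of the 2 groups did not overlap (exact permutation test, 2-sided, p = 0.0159, the smallest that 4 against 5 allows). In BKO muscle the same difference was -0.20 ± 0.12 (limma, adjusted p = 0.199), with a 95% interval of -0.45 to 0.06. Between BKO and WT ligated muscle the log2 fold change was 0.45 ± 0.13 (limma, adjusted p = 0.0337; exact permutation test p = 0.0286, the smallest for 4 against 4). Between the intact groups it was -0.04 ± 0.12 (limma, adjusted p = 0.877, interval -0.28 to 0.21). The interaction, which is the ligation difference in BKO minus that in WT, was 0.48 ± 0.17 for Myh4 and missed the threshold (limma, adjusted p = 0.100). The ligation fall in WT stayed called when any 1 library was left out (highest adjusted p 0.00107). The BKO to WT call in ligated muscle was lost without any 1 of BKO ligated libraries 2 and 4 or WT ligated libraries 2, 4 and 6 (adjusted p 0.0560 to 0.0972). It was also lost when BKO ligated libraries 4 and 5, the highest in mt-Rnr2, were left out together (log2 fold change 0.44, adjusted p = 0.124), and with no filter on low values (adjusted p = 0.310).

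Myh1, the IIx chain, was lower in BKO ligated muscle than in either WT ligated or BKO intact muscle, in 3 of the 4 libraries. Its normalized counts were 37312, 40301, 99838 and 37919 in BKO ligated libraries, against 84618, 93405, 87440 and 98991 in WT ligated libraries. They were 54998, 82151, 105019, 155084 and 101191 in BKO intact libraries, against 99921, 99933, 101675, 129162 and 148960 in WT intact libraries. BKO ligated library 5 stood above all 4 WT ligated libraries, and the other 3 stood below all of them. The log2 fold change between BKO and WT ligated muscle was -0.90 ± 0.28 (limma, adjusted p = 0.0466), while an exact permutation test gave p = 0.143. This call was the less stable of the 2 in that comparison. It was kept with 4 of the 18 libraries left out in turn, and without BKO ligated library 5 the difference was -1.24 (adjusted p = 0.00125). With all libraries, the call was lost with edgeR (-0.755, adjusted p = 0.108) and DESeq2 (-0.754, adjusted p = 0.172) on the recovered reads. Between BKO ligated and BKO intact muscle Myh1 differed by -0.95 ± 0.26 (limma, adjusted p = 0.00546), called with every library left out in turn (highest adjusted p 0.0242). In WT muscle Myh1 was lower in every ligated than in every intact library (exact permutation p = 0.0159), with a log2 fold change of -0.33 ± 0.26 that limma did not call (adjusted p = 0.337). The interaction was -0.62 ± 0.37 (limma, adjusted p = 0.346), so a difference between genotypes in the ligation response of Myh1 was not shown.

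Myh2, the IIa chain of fast oxidative fibres, passed the test in none of the 5 comparisons. It had 4777, 3886, 9055 and 9203 normalized counts in BKO ligated libraries, against 10052, 9551, 6818 and 10095 in WT ligated libraries. The ranges were 3353 to 8847 in BKO intact and 4256 to 9896 in WT intact muscle. The BKO ligated libraries fell into a low and a high pair on either side of the lowest WT ligated library. The 95% interval of the log2 fold change ran from -1.14 to 0.10 for BKO against WT ligated muscle and from -0.18 to 1.00 for ligated against intact WT muscle.

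The slow chain Myh7 varied widely within every group, and no difference between groups passed the test. Its normalized counts were 131, 202, 38.8 and 430 in BKO ligated, 139, 29.8, 44.4 and 152 in WT ligated, 22.2, 64.3, 27.6, 236 and 18.7 in BKO intact and 96.8, 319, 8.87, 220 and 28.1 in WT intact libraries. All 4 groups overlapped. The limma fit called Myh7 in none of the comparisons, and the interval for BKO against WT ligated muscle spanned -0.998 to 2.97. Without BKO intact library 4, the highest of its group at 236, the ligation difference in BKO was 2.27 (adjusted p = 0.0417), against 1.68 (adjusted p = 0.135) with it.

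Myh7b was lower in ligated than in intact muscle of both genotypes, on few reads. BKO ligated libraries held 3, 10, 7 and 1 reads of Myh7b and WT ligated libraries 2, 10, 0 and 2 reads. BKO intact libraries held 28, 38, 20, 25 and 13 reads and WT intact libraries 18, 5, 8, 18 and 12 reads. The groups overlapped in both genotypes. Its mean was 5.83 normalized counts in BKO ligated and 4.21 in WT ligated muscle, against 23.3 in BKO intact and 13.3 in WT intact muscle, so it reached the filter at 10 through the intact groups alone. The log2 fold change on ligation was -2.08 ± 0.65 in BKO (limma, adjusted p = 0.0123) and -2.02 ± 0.65 in WT (limma, adjusted p = 0.0172). With no filter on low values both calls held (adjusted p = 0.0172 in BKO and 0.0236 in WT, by limma). An exact permutation test gave p = 0.032 in BKO and p = 0.0635 in WT. The BKO call was lost without BKO ligated library 6 (adjusted p = 0.0572), and the WT call without WT ligated library 5, which had 0 reads (log2 fold change -1.47, adjusted p = 0.0807).

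Of the developmental chains, Myh8 was higher in ligated than in intact muscle of both genotypes. Its normalized counts were 320, 371, 276 and 263 in BKO ligated libraries, against 38.2, 32.7, 71.9, 48.6 and 118 in BKO intact libraries. They were 298, 235, 134 and 328 in WT ligated libraries, against 47.7, 35.5, 30.5, 49.1 and 45.2 in WT intact libraries. Every ligated library stood above every intact one. Ligation went with a log2 fold change of 2.44 ± 0.30 in BKO (limma, adjusted p = 1.51e-06) and 2.49 ± 0.30 in WT (limma, adjusted p = 1.35e-06), and both calls held with any 1 library left out. The mean was 4.97 times as high in BKO ligated as in BKO intact muscle and 5.97 times as high in WT ligated as in WT intact muscle. BKO and WT ligated muscle differed by 0.37 ± 0.31 (limma, adjusted p = 0.529), and the interaction was -0.06 ± 0.42 with an interval of -0.93 to 0.82. Myh8 stayed a trace chain: even in ligated muscle it made up 0.0250 to 0.0675% of the family sum.

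Myh3, the embryonic chain, passed the limma test on ligation in BKO and missed it in WT. It had 49.97, 79.8, 64.3 and 114 normalized counts in BKO ligated libraries, against 17.8, 14.7, 15.8, 22.6 and 61.0 in BKO intact libraries. It had 85.1, 23.1, 25.2 and 109 in WT ligated libraries, against 31.0, 24.9, 22.7, 23.1 and 22.1 in WT intact libraries. In WT, ligated libraries 2 and 6 were high and libraries 4 and 5 lay within the intact range. The same 2 WT libraries were also the highest for Myh8, and BKO intact library 5 was the highest of its group for both genes. The log2 fold change on ligation was 1.66 ± 0.42 in BKO (limma, adjusted p = 0.00302) and 0.95 ± 0.42 in WT (limma, adjusted p = 0.0811). The difference between those values, the interaction, was 0.71 ± 0.60 (limma, adjusted p = 0.530), so the genotypes were not shown to differ. The WT difference passed the threshold with edgeR (adjusted p = 0.0208) and DESeq2 (adjusted p = 0.0117) on the recovered reads.

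Counted over the family, BKO against WT ligated muscle gave 2 of 7 members called, Myh4 higher and Myh1 lower, where 8.84% of all 12262 genes tested were called. BKO against WT intact muscle gave 0 of 7 where 18.3% of all genes were called, and no member had an unadjusted p under 0.05 there; edgeR and DESeq2 also called 0. Ligation gave 4 of 7 members in BKO, where 47.2% of genes were called, and 3 of 7 in WT, where 39.8% were called; both counts include Myh7b, which passed the filter through the intact groups. These shares of members lie near the background. The interaction gave 0 of 7 with limma, where 6.01% of genes were called, with an unadjusted p under 0.05 for 1, Myh4; edgeR called 0, and DESeq2 called Myh4 (adjusted p = 0.0141). The count of 2 in ligated muscle depends on the setting, and 7 other filters, scalings or models left 1 call or none. Values of BKO and WT ligated muscle did not overlap for 1 member, against 12.9% of all genes, and those of BKO and WT intact muscle for 0, against 14.4%. On ligation 1 member in BKO and 3 in WT did not overlap, against 35.7% and 32.5% of all genes. The median log2 fold change of the 7 was 0.45 in BKO against WT ligated muscle and between -0.12 and 0.16 in the other 3 pairs of groups, while that of all genes stayed between -0.02 and 0.00.

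**Figure D2:**
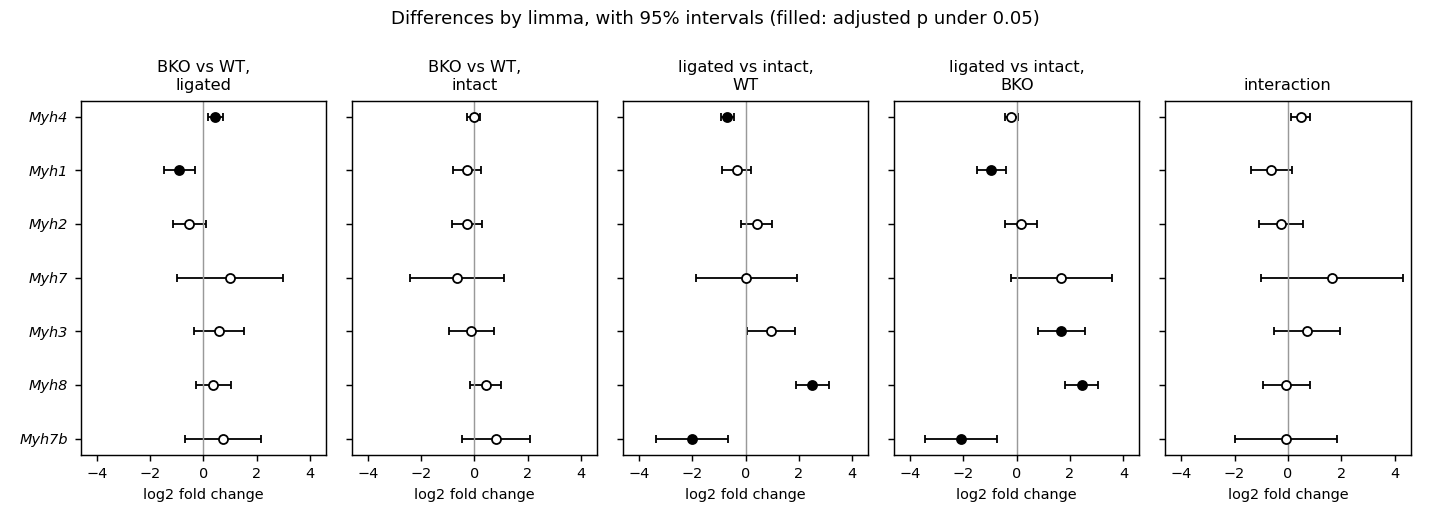
Log2 fold change (horizontal axis) of each myosin heavy chain in BKO against WT ligated, BKO against WT intact, ligated against intact WT, ligated against intact BKO muscle and the interaction; bars are 95% intervals from limma and filled points have an adjusted p under 0.05. Myh8 lies near 2.5 in both ligation panels, and Myh4 and Myh1 are filled on opposite sides of 0 in the panel of ligated muscle.

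As shares of the summed family value, Myh4 made up most of the myosin message in every library, and its balance with Myh1 differed most in ligated muscle. Myh4 took 93.1, 92.9, 82.0 and 91.2% in BKO ligated libraries, against 79.7, 79.0, 82.4 and 77.4% in WT ligated libraries. It averaged 85.3 ± 5.69% in BKO intact and 83.6 ± 3.92% in WT intact muscle (SD, n = 5 each). Myh1 took 6.04, 6.39, 16.5 and 6.97% in BKO ligated libraries, against 18.1, 19.0, 16.3 and 20.4% in WT ligated libraries. For both genes the WT ligated libraries lay close together, and 3 of the 4 BKO ligated libraries lay apart from them. BKO ligated library 5 lay among the WT libraries for Myh1 and within their range for Myh4. The ratio of Myh4 to Myh1 was 15.4, 14.5, 4.97 and 13.1 in BKO ligated libraries, against 4.40, 4.15, 5.05 and 3.80 in WT ligated libraries. In intact muscle it ran from 3.50 to 12.97 in BKO and from 3.67 to 7.64 in WT, so the BKO intact libraries alone covered most of the span between the ligated groups. BKO ligated library 5 held 25.6 M reads and had the largest share of mt-Rnr2, 55.5%.

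Myh2 made up 1.14 ± 0.529% of the family sum in BKO ligated and 1.86 ± 0.402% in WT ligated muscle (SD, n = 4 each), against 0.823 ± 0.303% in BKO intact and 0.966 ± 0.393% in WT intact muscle (SD, n = 5 each). The 4 lesser chains together stayed far below 1% in each library. Myh3 and Myh8 summed to 0.0561 to 0.0714% in BKO ligated, against 0.00689 to 0.0268% in BKO intact muscle, and to 0.0297 to 0.0898% in WT ligated, against 0.00696 to 0.0114% in WT intact muscle. The shares are descriptions and carry no test, since a rise of 1 member lowers the share of the others.

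**Figure D3:**
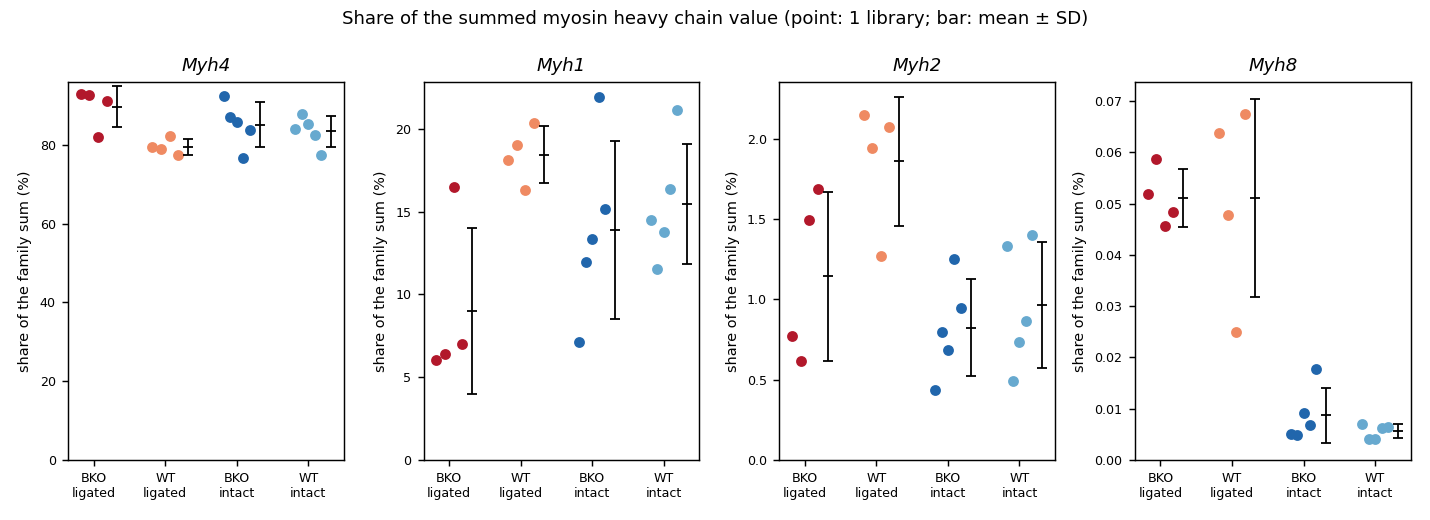
Share of the summed value of the 7 myosin heavy chains (percent, linear axes from 0) taken by Myh4, Myh1, Myh2 and Myh8 in each BKO ligated, WT ligated, BKO intact and WT intact library, with mean ± SD beside the points. BKO ligated library 5 is the point at 16.5% for Myh1, and the other 3 of its group lie between 6.04 and 6.97%.

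Along the chromosome 11 cluster, neighbours did not move alike on ligation. From Myh3 to Myh8 the log2 fold changes in BKO were 1.66, 0.16, -0.95, -0.20 and 2.44 for Myh3, Myh2, Myh1, Myh4 and Myh8. Myh3 and Myh8 were higher there, Myh1 was lower, and Myh2 and Myh4 were not called. In WT the same genes had 0.95, 0.41, -0.33, -0.68 and 2.49, with Myh8 called higher and Myh4 lower. Myh13, which follows Myh8 at the far end of the cluster and is no member, had -3.89 in BKO and -3.97 in WT. The noncoding genes of the cluster lie on the opposite strand and were added to the description after their values had been seen. 2310065F04Rik, a long noncoding RNA gene between Myh3 and Myh2 (chr11:67112461-67120080), was lower after ligation in BKO (-0.92 ± 0.11, adjusted p = 1.60e-06) and in WT (-1.34 ± 0.11, adjusted p = 1.43e-08), by limma. It was higher in BKO than in WT ligated muscle (0.44 ± 0.12, limma, adjusted p = 0.0231). 9430073C21Rik overlaps the last 1838 bases of Myh2, and was lower after ligation in BKO (-1.43 ± 0.39, adjusted p = 0.00504) and in WT (-1.03 ± 0.39, adjusted p = 0.0414), by limma. Its mean was 6.60 normalized counts in BKO ligated and 5.63 in WT ligated muscle, against 17.5 in BKO intact and 11.9 in WT intact muscle. It thus reached the filter at 10 through the intact groups alone, which could only bring in a lower value after ligation. Myhas overlaps Myh1 over 13320 bases and was lower after ligation in WT (-0.52 ± 0.16, limma, adjusted p = 0.0124), with -0.31 in BKO, not called. No source used here gives the strand setting of the counting, and reads of Myh1 and Myhas, and of Myh2 and 9430073C21Rik, are uncertain in their split.

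**Figure D4:**
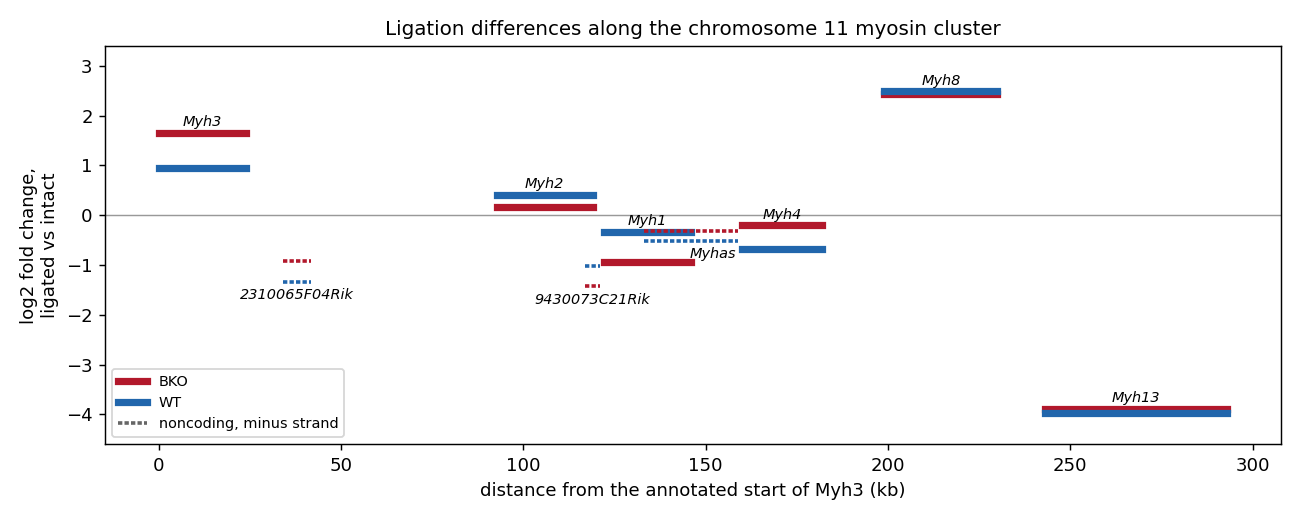
Log2 fold change, ligated against intact, of the genes of the chromosome 11 cluster (vertical axis) in BKO and in WT, drawn over each gene's extent as distance in kb from the annotated start of Myh3; dotted lines are noncoding genes on the minus strand. Myh3 and Myh8 lie above 0, Myh1 and Myh4 between them below it, Myh2 at 0.16 in BKO and 0.41 in WT, and Myh13, beyond Myh8, at -3.89 in BKO and -3.97 in WT.

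The other myosin heavy chains of the mouse are a reference for these values. Of 7 listed, 6 were tested. On ligation 1 was called higher and 2 lower in BKO, where 47.2% of all genes were called, and 1 higher and 3 lower in WT, where 39.8% were. Myh9, a nonmuscle chain, was higher (0.92 ± 0.14 in BKO and 0.71 ± 0.14 in WT). Myh6, the alpha cardiac chain and the neighbour of Myh7, held 3 reads over all BKO ligated libraries against 271 in BKO intact, and 1 read in WT ligated against 101 in WT intact libraries. Myh13, the extraocular chain at the far end of the cluster, held 26 reads in BKO ligated against 407 in BKO intact, and 9 in WT ligated against 229 in WT intact libraries. These 3 genes passed in both genotypes, with limma's adjusted p at most 0.000538. Myh6 and Myh13, like Myh7b, had means under 10 in both ligated groups and reached the filter through the intact groups alone. Passing the filter in this way could only bring in a lower value after ligation, so their shared direction is no result about low chains. Of the cardiac markers, Tnni3 was near 0 in all groups.

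Some partners of myosin in the filament were called between the genotypes, and most were not. In ligated muscle these were 1 of 6 light chains and 2 of 8 thick filament partners, where 8.84% of all genes were called, and in intact muscle 1 of 6 and 3 of 8, where 18.3% were. Among the light chains, Mylpf, the fast regulatory light chain, was higher in BKO than in WT muscle when ligated (0.69 ± 0.11, limma, adjusted p = 0.000150) and when intact (0.66 ± 0.09, limma, adjusted p = 4.04e-05). Myl4, the embryonic light chain, was higher after ligation in BKO (1.41 ± 0.42, adjusted p = 0.00884) and in WT (1.08 ± 0.42, adjusted p = 0.0453), as Myh8 was. Myl1, the fast alkali light chain, was lower after ligation in BKO (-0.53 ± 0.08) and in WT (-0.49 ± 0.08). In all, 3 light chains were called higher and 1 lower after ligation in BKO, where 47.2% of all genes were called. In WT 2 were higher and 1 lower, where 39.8% of all genes were called. Of 8 thick filament partners, BKO against WT ligated muscle gave 1 higher and 1 lower. Mybpc1, the slow type of myosin-binding protein C, was lower there (-1.002 ± 0.097, limma, adjusted p = 4.33e-07), and Myom3, an M-band protein, was higher (1.60 ± 0.29, limma, adjusted p = 0.00103). In intact muscle Mybpc1 was also lower in BKO than in WT (-0.42 ± 0.09, limma, adjusted p = 0.0017). Its interaction was -0.58 ± 0.13 (limma, adjusted p = 0.0135). Mybph, a relative of myosin-binding protein C, was higher after ligation in BKO (1.43 ± 0.23) and in WT (3.03 ± 0.23), with an interaction of -1.60 ± 0.33 (limma, adjusted p = 0.00807). It was already higher in BKO than in WT intact muscle (2.17 ± 0.22, limma, adjusted p = 5.77e-07). Between BKO and WT ligated muscle Mybph was not called (0.56 ± 0.24, limma, adjusted p = 0.17). All 8 partners passed on ligation in BKO, 4 in each direction, and 6 of 8 in WT, 3 in each direction, against the same 47.2% and 39.8% of all genes.

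Genes that fold, assemble and turn over myosin were mostly lower after ligation. Of 9, none was called higher in either genotype, and 5 were lower in BKO and 7 in WT. Of all genes, 47.2% were called in either direction in BKO and 39.8% in WT, so the BKO count lies near the background. Stip1, a cochaperone of the HSP90 system that folds myosin, was lower in BKO (-0.81 ± 0.09) and in WT (-0.62 ± 0.09). Unc45b, the dedicated myosin chaperone, was lower in WT (-0.21 ± 0.07, limma, adjusted p = 0.0202). Smyd1, a methyltransferase needed for sarcomere assembly, was lower in BKO (-0.93 ± 0.08) and in WT (-0.50 ± 0.08). Trim63, the ubiquitin ligase MuRF1 that acts on myosin heavy chain, was higher in BKO than in WT muscle when ligated (1.17 ± 0.13, limma, adjusted p = 1.78e-06) and when intact (0.91 ± 0.11, limma, adjusted p = 8.18e-06). The medians of the 9 were -0.40 in BKO and -0.46 in WT on ligation, against 0.00 for all genes in both.

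Of 27 regulators of myosin heavy chain genes, BKO against WT intact muscle gave 2 higher and 12 lower, where 18.3% of all genes were called. Their median log2 fold change was -0.28, although none of the 7 myosins passed there. In ligated muscle BKO against WT gave 3 higher and 2 lower, where 8.84% of all genes were called. Mef2d and Nfix were among the lower ones in intact BKO muscle (-0.62 ± 0.09 and -0.81 ± 0.13). Tead4, a TEA domain factor, was higher in BKO in both limbs (2.28 ± 0.19 ligated and 2.07 ± 0.17 intact), and Vgll2, a cofactor of these factors in muscle, was lower (-1.23 ± 0.22 ligated and -1.57 ± 0.20 intact). Mafa, a large Maf factor known to activate Myh4 in the mouse, was higher in BKO in both (1.12 ± 0.23 ligated, adjusted p = 0.00306; 0.86 ± 0.21 intact, adjusted p = 0.00520). Tbx15, a factor of fast glycolytic fibres, was lower in BKO in both (-0.40 ± 0.10 ligated and -0.34 ± 0.09 intact). After ligation 6 regulators were higher and 11 lower in BKO, where 47.2% of all genes were called. In WT 2 were higher and 17 lower, where 39.8% of all genes were called. Eya1, a coactivator of fast fibre genes, was lower in BKO (-1.03 ± 0.15) and in WT (-1.24 ± 0.15). Ppargc1a, the coactivator PGC-1alpha of oxidative fibres, was lower in BKO (-1.29 ± 0.18) and in WT (-0.95 ± 0.18). Sox6, a repressor of slow genes, was lower in BKO (-0.52 ± 0.10) and in WT (-0.79 ± 0.10), while Myh7 passed in neither. Nfix, which favours fetal over embryonic muscle genes in the mouse, had an interaction of 1.00 ± 0.19 (limma, adjusted p = 0.00583). These values do not say which regulator acts on which myosin.

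Markers of other cells moved with ligation beside the myosins, and some differed between BKO and WT ligated muscle, where Myh4 and Myh1 were called. All 5 adipocyte markers were called higher after ligation in BKO and in WT, and their summed normalized count was 2156 to 4973 in BKO ligated, 4298 to 6367 in WT ligated, 715 to 815 in BKO intact and 702 to 921 in WT intact muscle. Of these, Lep and Plin1 had means under 10 in both intact groups and reached the filter through the ligated groups alone. Passing it in this way could only bring in a higher value after ligation. Over all genes, 47.2% were called on ligation in BKO and 39.8% in WT, in either direction. Of 4 fibroblast and 3 endothelial markers, 3 and 3 were higher in each genotype, and of 3 macrophage markers 0 in BKO and 2 in WT. Of 3 smooth muscle markers 1 was lower in BKO and 0 in WT, and of 2 Schwann cell markers tested 0 were higher in BKO and 1 in WT. In BKO against WT ligated muscle 1 of 5 adipocyte markers was lower (Lep, -1.64 ± 0.45, limma, adjusted p = 0.0249), 1 of 4 fibroblast markers (Dcn, -0.48 ± 0.15, limma, adjusted p = 0.0421) and 1 of 3 macrophage markers (Csf1r, -0.90 ± 0.21, limma, adjusted p = 0.00974). None of these lists had a marker called higher there, where 8.84% of all genes were called, and their medians were -1.18, -0.20 and -0.85. The summed macrophage markers ran from 107 to 191 normalized counts in BKO ligated, against 214 to 264 in WT ligated muscle. Of 6 markers of the muscle fibre itself, 4 were lower after ligation in each genotype and none in BKO against WT ligated muscle, where the sums were 1060220 to 1351090 in BKO and 1149360 to 1362460 in WT. Of the regeneration markers that are not myosins, Myod1 was higher after ligation in BKO (0.60, adjusted p = 0.00309), by limma, but was not called in WT (-0.05, adjusted p = 0.835). It was higher in BKO than in WT ligated muscle (0.58, limma, adjusted p = 0.0272). Myog was higher after ligation in WT (0.98, limma, adjusted p = 0.00786). It was not called after ligation in BKO (0.50, adjusted p = 0.151) or in BKO against WT ligated muscle (-0.18, adjusted p = 0.78). Chrng was at 0 to 7 reads in every library. The part of these cells in the myosin differences was not tested.

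By the likeness of their profiles over the 18 libraries, measured as the root mean square difference of centred log2 values against 8247 genes, a myosin-binding protein C was among the nearest genes of Myh4 and of Myh1. The 3 genes nearest to Myh4 were Ube4a (0.111), Filip1 (0.125) and Mybpc2 (0.137), the fast type of myosin-binding protein C, where the profile of Myh4 itself has a root mean square of 0.298. Nearest to Myh1 were Magix (0.348), Mybpc1 (0.362) and Oxct1 (0.367), against its own 0.603. Nearest to Myh2 were Fhl1 (0.309), Tnfrsf19 (0.356) and H19 (0.360), against 0.506. Myh8 lay closest to Aplnr (0.464), Fgfrl1 (0.490) and Pxdn (0.549), against 1.32, and Myh3 to Kcnn3 (0.536), Col8a1 (0.576) and Adcy7 (0.582), against 0.935. For Myh7 the nearest gene, Unc13b, was at 1.27 against 1.54 for Myh7 itself, so no gene followed it closely. Myh7b, on few reads, lay closest to Raver2 (0.871), Efcab6 (0.881) and mt-Atp6 (0.912), against 1.44. These are descriptions, and they include the group differences given above.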

How the data were processed

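RNA was sequenced from 18 tibialis anterior muscles in 4 groups, with TruSeq stranded total RNA libraries per the labels' protocols. The submitters' processing notes name Trimmomatic 0.33, STAR 2.5.2, RSEM 1.3.3, DESeq2 and mm10, without order or role; the sources used here do not give the annotation, read length or strand setting. The authors deposited a normalized count, a signal value for each gene in each library, with no correction for length. Within a tolerance of 0.001, each was a whole number divided by 1 factor per library; in 2 libraries (WT intact 6, BKO ligated 2) that factor lay within 1% of 1. The whole numbers are called reads; counting error limits genes with few reads, and with no molecular identifiers a read is not a molecule.

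Here, limma 3.58.1 was run on log2(normalized count + 1) of the 12262 genes whose mean reached 10 (R 4.3.3, 4 group means, eBayes with an intensity trend), with Benjamini-Hochberg adjustment over all of them and a threshold of 0.05. Adjusted p-values in the text are from this fit unless another tool is named, and log2 fold changes carry its standard error. Fold changes on this scale understate changes of low genes. The 5 comparisons drawn from the fit share samples: each group enters 2 pairs and the interaction. Alternatives were other pseudocounts, filters, scalings and models, edgeR 4.0.16 and DESeq2 1.42.0 on the reads, a replicate block, exact permutation tests and each library left out. The steps were tested on simulated data.

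The labels do not state that samples are separate animals, so the p-values cover the spread of these samples, which may be technical. Nor do they say that a shared number marks 1 mouse. Deviations of same-numbered ligated and intact libraries of a genotype correlated between -0.064 and 0.048, so the numbers were not taken to pair samples. The main fit treated ligated and intact libraries as independent, although limbs of the same mouse may be among them. The genes and lists were chosen with earlier results of these data known. Of each list, genes were named among the 4 with the smallest p in a comparison, and their values in the others; Unc45b was added after its values were seen. Some genes of these lists are counted but not reported by name here. Likeness was measured against genes with a mean of at least 50, and 3 are named per member. Coding lengths and identities come from GENCODE and promoters from RefSeq (GRCm38.p6).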

Additional observations from a re-analysis of the deposited data

Results flagged for a closer look

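In 10 of 56 groups of values examined, 1 library stood far from the others of its group, by the gap to its nearest neighbour over the range of the group. Chance alone flags about 1 in 20 such groups, and the counts and shares of a gene are not independent. BKO ligated library 5 was far above the other 3 of its group for Myh1, at 99838 normalized counts and 16.5% of the family sum. WT ligated library 5 was far below its group for Myh2, at 6818. BKO intact library 5 was far above its group for Myh3, at 61.0 normalized counts and a share of 0.00915%, and WT intact library 2 was so for the share of Myh3, at 0.00448%. BKO intact library 4 stood far above its group for Myh7, at 236 normalized counts and 0.0334%. WT ligated library 4 stood far above its group for Myh7b, at 13.6 normalized counts (10 reads) and 0.00276%. No cause was tested for these values.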

How the results depend on the processing

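Of 1096 member fold changes under other settings, 1014 kept their direction and side of the threshold, 35 lost the call, 10 gained one and 37 changed sign, none of the latter called in either fit; all 170 shares moved by less than 1 SD. BKO against WT ligated muscle called 2 members, 0 with no filter on low values or with only the 2 groups, 1 with no intensity trend, library weights, scaling without mitochondrial genes and members, edgeR, DESeq2 or without BKO ligated libraries 4 and 5, the highest in mt-Rnr2 (chosen after the data were seen), and 0 to 2 with 1 library left out. Ligation in BKO called 4 members, 2 with a filter at 50 (fewer members tested), and 3 to 5 with 1 library left out; in WT 3, and 3 to 4. The interaction called 0, and 1 with DESeq2. Over all genes the interaction called 737, against 269 to 1158, and 402 to 1015 with 1 library left out; BKO against WT ligated muscle called 1084, against 616 without those 2 libraries. With the replicate block (animal number within genotype), ligation in BKO called 2 members and the interaction 382 genes. Myh3 (1.18, adjusted p = 0.0546) and Myh7b (-1.55, adjusted p = 0.172) lost the call on ligation in BKO there. Same-numbered ligated and intact libraries of a genotype correlated at -0.064 to 0.048 and share only a number. Uncalled values that changed sign were, for BKO against WT intact muscle, Myh2 (0.036) and Myh3 (0.115) with the replicate block by number, and Myh3 with edgeR (0.119) and DESeq2 (0.105). In BKO against WT ligated muscle it was Myh7b without BKO ligated libraries 4 and 5 (-0.21). On ligation they were Myh7 in WT with a pseudocount of 5 (-0.029), edgeR (-0.48) and DESeq2 (-0.55), and Myh2 in BKO with the block (-0.29). For the interaction they were Myh8 with weights (0.022) and the block (0.015), and Myh7b with a pseudocount of 0.5 (0.14), weights (0.23) and the block (0.70). With 1 library left out, ranges that cross 0 were -0.467 to 0.028 (Myh3) and -0.090 to 0.033 (Myh4) for BKO against WT intact muscle, -0.69 to 0.57 (Myh7) on ligation in WT, -0.024 to 0.392 (Myh2) on ligation in BKO, and -0.32 to 0.21 (Myh8) and -0.61 to 0.68 (Myh7b) for the interaction. Causes were not tested. Few reads limit Myh7b, Myh3 and Myh7.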
